A study of Mus musculus with 12 samples.

Results

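The 35 genes described here mark monocytes and macrophages or do the work of these cells: growth factor signals and receptors, lineage transcription factors, surface proteins, lysosomal enzymes, complement, receptors that clear dead cells, and enzymes that make reactive products. They were taken by symbol, as a fixed set of names with no rule on measured values, though with earlier results of these data known. All 35 were found among the 29956 named genes of the deposited table, and all 35 passed the filter on low counts that left 18218 genes for testing. RNA came from wounded back skin. The genotype of all mice, in every group, was B6.BKS(D)-Leprdb/db: without a functional receptor for leptin, these mice grow obese and diabetic. Full-thickness punch wounds were given Alcaligenes faecalis, a Gram-negative bacterium found in chronic wounds, Staphylococcus aureus, a Gram-positive pathogen of skin, or phosphate-buffered saline with glycerol as vehicle. Skin was taken on day 3, with 4 mice in each of the 3 groups. No skin of non-diabetic mice, no unwounded skin and no other day were analysed here, so each difference is between wounds of diabetic mice.

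Monocytes enter a wound from the blood and mature there into macrophages, which take up bacteria and debris, kill microbes, and later swallow spent neutrophils and release factors that drive repair. The transcription factor PU.1 sets up the whole lineage, and signalling by colony stimulating factor 1 through its receptor keeps macrophages alive. In diabetic wounds of mice and humans, macrophages are known for a prolonged inflammatory state and poor clearance of dead cells. The RNA was of whole tissue, so a lower level of a gene because fewer cells of a type were present and one because each cell held less of the RNA cannot be told apart.

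Libraries held 38.4 to 71.3 M (mega) estimated counts. The 35 genes took 1.91 ± 0.206% of all counts in A. faecalis wounds, 1.51 ± 0.0889% in S. aureus wounds and 1.69 ± 0.115% in vehicle wounds (mean ± SD, n = 4 each). The lowest count of any member in any library was 93 for Cd5l, and every other member had at least 827. Skin was recognisable in every group: summed levels of 8 keratinocyte markers were 625 to 1195 CPM in A. faecalis wounds, 847 to 2493 CPM in S. aureus wounds and 1254 to 2012 CPM in vehicle wounds. CPM are counts per M of library size after TMM scaling (trimmed mean of M-values, which evens out library composition). Vehicle replicate 3 stood apart from the other libraries, with the highest adipocyte marker score of the 12 (2.34, where the other libraries lay between -0.88 and 0.57) and the lowest neutrophil marker score (-2.66). A score is the mean log2 CPM of a marker list after each gene's mean over the 12 libraries is subtracted.

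**Figure D1:**
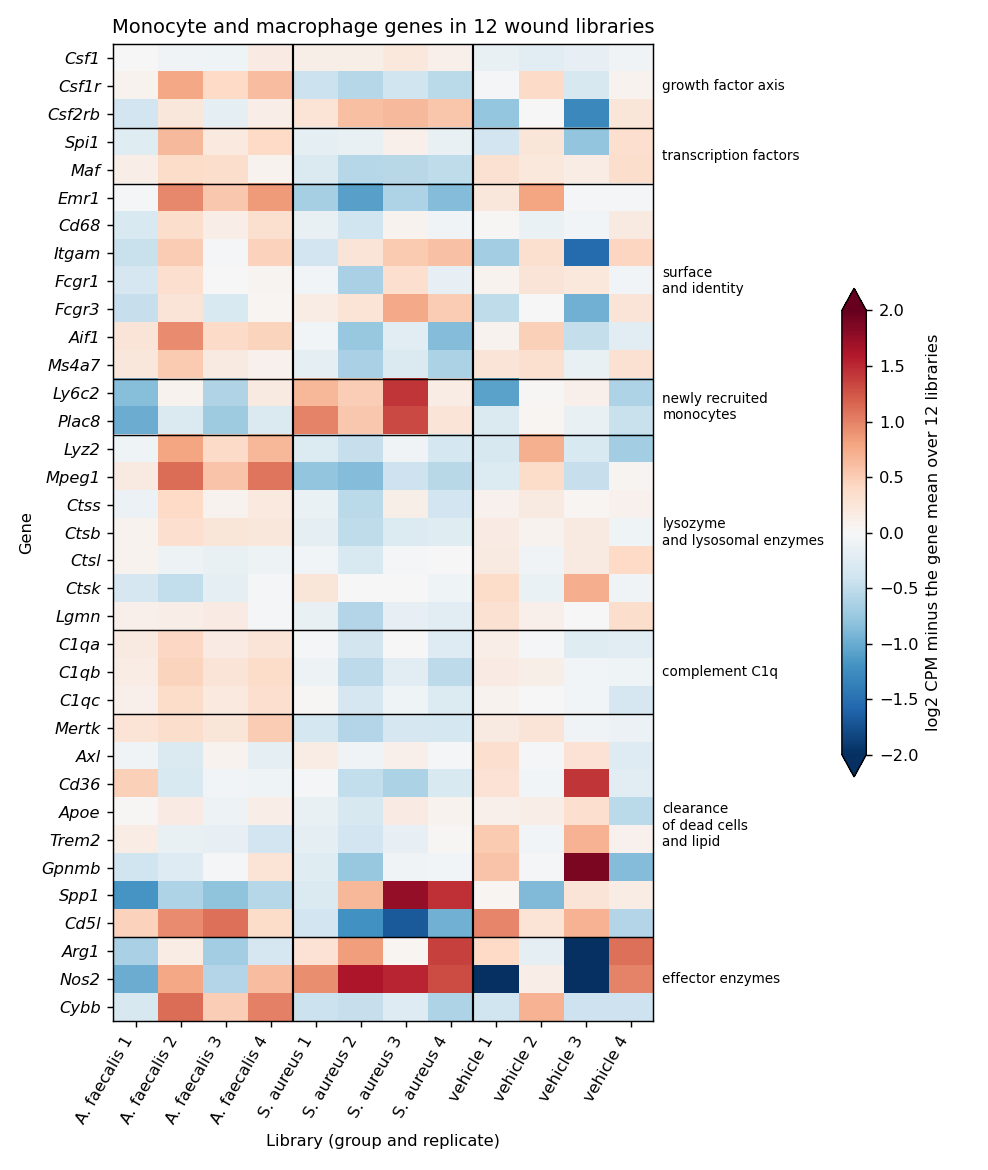
Heat map of the 35 genes (vertical axis, grouped by role) in the 12 libraries (horizontal axis), coloured by log2 CPM minus the mean of the gene over all 12 libraries; values past 2 in either direction share the end colours. Maf, Emr1, Mertk and Cd5l are blue across the S. aureus columns, while Plac8 is red there. Ly6c2 is red in S. aureus replicates 1 to 3 and near its mean in replicate 4.

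Set against vehicle, S. aureus wounds had lower levels of Emr1, Maf, Mertk, Ms4a7, Cd5l, Ctsb and Lgmn. Among these are genes of mature macrophages and of lysosomes, but Ctsb is made by many cell types and some T cells use Maf. S. aureus wounds had higher levels of Plac8, which is abundant in newly arrived monocytes, and of Csf1. These 9 members, 25.7% of the 35, passed the quasi-likelihood test of edgeR (adjusted p under 0.05 after Benjamini-Hochberg adjustment over all genes tested). The 2 that rose compare with 3.87% of all genes tested that were called higher, and the 7 that fell with 2.97% called lower. Cd68, C1qa, C1qc and Apoe, also among the members, were not called (log2 fold changes -0.13, -0.08, -0.08 and -0.09). The median log2 fold change of the 35 was -0.23, against -0.04 over all genes tested, and the groups did not overlap in 12 members (4 higher and 8 lower in S. aureus wounds), where 15.1% of all genes tested had no overlap. DESeq2 called 14 members, the same 9 with Csf1r, Csf2rb, Ly6c2, C1qb and Spp1, and limma-voom called 9. A fit of only the 2 groups compared, with all 8 of their libraries, called 2 members, Maf and Emr1. With no filter on low counts Csf1, Ctsb and Lgmn were not called. The count also changed with single libraries: it was 2, 1 and 2 without S. aureus replicate 2, 3 or 4, and 2 and 4 without vehicle replicate 1 or 2, while it was 7 without vehicle replicate 3.

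A. faecalis wounds differed from S. aureus wounds in more members than either did from vehicle. Of the 35, 15 (42.9%) were called: 13 were higher in A. faecalis wounds, beside 5.06% of all genes tested, and 2 were lower, beside 7.62%. Those higher were Csf1r, Maf, Emr1, Aif1, Ms4a7, Mpeg1, Ctsb, C1qa, C1qb, C1qc, Mertk, Cd5l and Cybb, and those lower were Plac8 and Spp1. The groups did not overlap in 17 members (13 higher and 4 lower in A. faecalis wounds), where 23.3% of all genes tested had no overlap. The median log2 fold change of the 35 was 0.37, against 0.02 over all genes tested. Leaving out each library in turn gave 11 to 17 called members, and limma-voom called 14. DESeq2 called 18, the same 15 with Ly6c2, Lyz2 and Lgmn, and a fit of only the 2 groups compared called 20, the same 15 with Csf2rb, Lyz2, Lgmn, Arg1 and Nos2. Both also called more genes of any kind: 3453 and 3459 over all genes, against 2310 in the main fit.

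Between A. faecalis and vehicle wounds no member was called, where 2 genes (0.011% of those tested) were called in all. DESeq2 and limma-voom called no member either. At an unadjusted p under 0.05 there were 11 members, 9 higher and 2 lower in A. faecalis wounds, beside 7.68% of all genes tested. The groups did not overlap in 2 members, C1qa and C1qc, where 4.05% of all genes tested had no overlap. The median log2 fold change was 0.14, against -0.03 over all genes tested, with 23 members above 0 and 12 below. The 2 comparisons with vehicle use the same 4 vehicle libraries, so their values stand side by side here and no relation between them was computed.

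**Figure D2:**
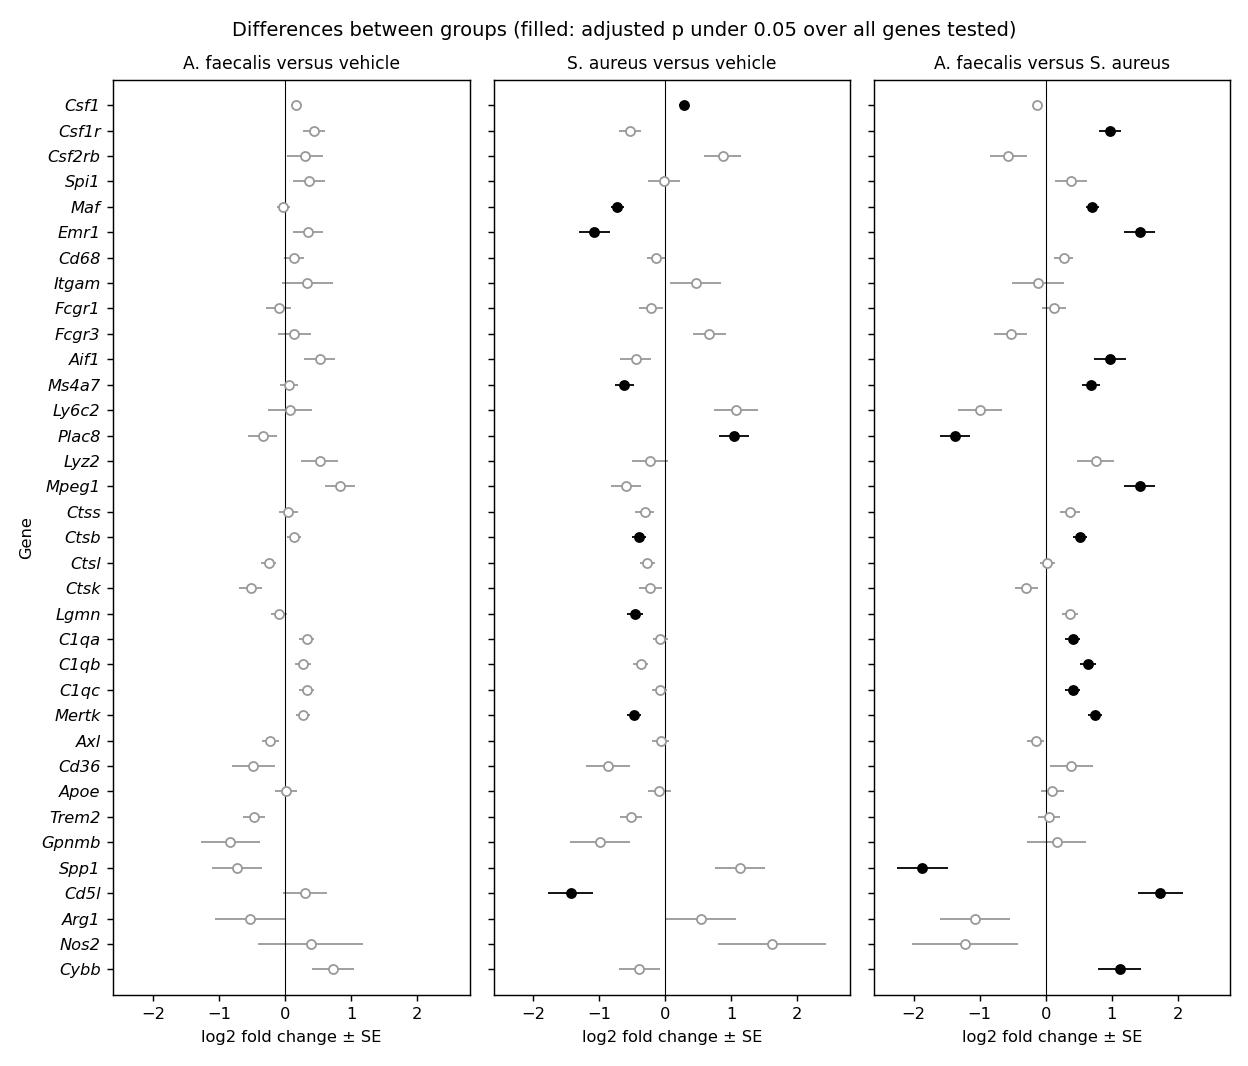
Log2 fold change ± SE (horizontal axes) of each of the 35 genes (vertical axis) for A. faecalis over vehicle, S. aureus over vehicle and A. faecalis over S. aureus; filled points passed the threshold. No point is filled in the first panel, 9 are in the second and 15 in the third.

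Start regions are shown for members that differed between the bacterial groups, from opposite sides of that difference. Only starts that hold the letters marked below are shown, so the presence of the letters in each sequence follows from this choice. C1qb and C1qc, Aif1 and Cd5l were higher in A. faecalis wounds, and Plac8 and Spp1 lower. Each sequence is the 250 bases before a start listed by RefSeq on mouse build GRCm38.p6, written 5′ to 3′ on the gene's strand. Capitals mark GAGGAA or its reverse complement TTCCTC, the core letters bound by PU.1, the factor encoded by Spi1. C1qb lies on the minus strand at chr4:136886201-136886450 and C1qc on the minus strand at chr4:136892915-136893164. Aif1 lies on the minus strand at chr17:35176053-35176302 and Cd5l on the plus strand at chr3:87357631-87357880. Plac8 lies on the minus strand at chr5:100572206-100572455 and Spp1 on the plus strand at chr5:104434861-104435110, each the more upstream of 2 listed starts.
C1qb: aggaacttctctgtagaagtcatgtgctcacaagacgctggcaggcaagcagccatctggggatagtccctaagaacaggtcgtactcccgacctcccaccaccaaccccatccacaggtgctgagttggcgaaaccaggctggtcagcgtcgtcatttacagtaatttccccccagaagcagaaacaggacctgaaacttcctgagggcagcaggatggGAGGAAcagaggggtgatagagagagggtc
C1qc: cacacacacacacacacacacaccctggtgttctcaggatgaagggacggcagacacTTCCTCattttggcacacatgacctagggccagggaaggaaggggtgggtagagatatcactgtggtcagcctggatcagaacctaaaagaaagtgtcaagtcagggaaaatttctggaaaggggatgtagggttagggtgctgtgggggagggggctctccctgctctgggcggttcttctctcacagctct
Aif1: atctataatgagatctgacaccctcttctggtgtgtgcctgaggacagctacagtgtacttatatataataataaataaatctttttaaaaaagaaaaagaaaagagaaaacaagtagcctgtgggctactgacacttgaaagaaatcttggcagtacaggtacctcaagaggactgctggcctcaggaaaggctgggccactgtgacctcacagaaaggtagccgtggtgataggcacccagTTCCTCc
Cd5l: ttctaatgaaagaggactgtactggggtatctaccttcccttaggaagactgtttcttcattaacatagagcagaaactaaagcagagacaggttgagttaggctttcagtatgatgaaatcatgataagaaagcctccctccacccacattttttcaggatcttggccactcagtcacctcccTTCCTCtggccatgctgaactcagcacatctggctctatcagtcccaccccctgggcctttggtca
Plac8: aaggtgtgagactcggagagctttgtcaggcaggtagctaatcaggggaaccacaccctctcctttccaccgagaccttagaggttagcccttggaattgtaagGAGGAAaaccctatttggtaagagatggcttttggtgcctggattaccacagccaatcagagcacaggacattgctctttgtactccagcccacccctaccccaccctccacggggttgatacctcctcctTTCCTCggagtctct
Spp1: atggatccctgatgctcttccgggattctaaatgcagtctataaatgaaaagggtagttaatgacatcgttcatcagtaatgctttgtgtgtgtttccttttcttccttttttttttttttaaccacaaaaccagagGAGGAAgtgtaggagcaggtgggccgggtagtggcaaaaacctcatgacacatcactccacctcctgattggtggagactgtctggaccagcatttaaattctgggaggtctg
In C1qb the core stood 30 bases before the start on the strand shown, and in Aif1 it stood 7 bases before the start on the opposite strand. Plac8 held it at 146 bases on the strand shown and at 15 bases on the opposite strand. Spp1 held it at 113 bases on the strand shown, C1qc at 193 bases and Cd5l at 66 bases on the opposite strand. Start regions were used for 26 of the 35 members, with 34 listed starts. Any member start on 1 chromosome was left out, unlike in the count of all listed starts. Of the 34, 55.9% held the core on either strand, against 23.3% of all 32851 listed starts. Among members with a start region used here, 8 were higher in A. faecalis than in S. aureus wounds. Of these, 4 held it and Cybb, Mertk, Mpeg1 and Ms4a7 did not. Both lower members and 10 of the 16 uncalled members with a start region used here held it at 1 listed start or more. The other listed start of Plac8 and of Spp1 did not hold it. TGCTGA, a half-site of MAF factors, was in 23.5% of the members' starts and 16.1% of all, and TGANTCA, the AP-1 site, in 11.8% and 6.75% of all. Both strands were read, and TGCTGA can share its last 3 bases with TGANTCA. A match gives the letters only, and binding was not measured.

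Csf1r encodes the receptor through which macrophages receive their survival signal. Its level in A. faecalis wounds was 618, 1013, 775 and 908 CPM in replicates 1 to 4, in S. aureus wounds 436, 397, 447 and 405 CPM, and in vehicle wounds 574, 773, 475 and 621 CPM. All 4 S. aureus libraries lay below every library of the other groups, and A. faecalis and vehicle overlapped. Csf1r was higher in A. faecalis than in S. aureus wounds (log2 fold change 0.97 ± 0.17, SE; adjusted p = 0.00415, edgeR), with no call against vehicle for A. faecalis (0.44 ± 0.17, adjusted p = 0.595) or S. aureus (-0.53 ± 0.17, adjusted p = 0.0705, and 0.0429 without vehicle replicate 3).

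Csf1 encodes the main ligand of that receptor and is made largely by stromal and endothelial cells rather than by macrophages. It was measured at 146, 138, 137 and 163 CPM in A. faecalis wounds, 157, 156, 167 and 155 CPM in S. aureus wounds and 131, 125, 128 and 138 CPM in vehicle wounds. The S. aureus libraries were all above the vehicle libraries, and the A. faecalis libraries overlapped both. Csf1 rose in S. aureus wounds against vehicle by 0.28 ± 0.07 on the log2 scale (adjusted p = 0.04, edgeR), and this small change was lost with no filter, with only the 2 groups compared, and without any one of S. aureus replicates 2, 3 or 4 or vehicle replicates 1, 2 or 3 (adjusted p up to 0.118). Csf2rb, the shared signalling chain of the receptors for GM-CSF, interleukin-3 and interleukin-5, averaged 436 ± 82.5 CPM in A. faecalis, 644 ± 73.8 CPM in S. aureus and 353 ± 159 CPM in vehicle wounds (SD, n = 4 each). Every S. aureus library lay above every other library in Csf2rb, and edgeR called neither difference (adjusted p = 0.0773 against vehicle and 0.213 for A. faecalis against S. aureus). The difference from vehicle was called by DESeq2 (adjusted p = 0.0193) and without vehicle replicate 4 (0.0286), and that between the bacterial groups in the edgeR fit of only those 2 groups (0.0258).

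Of the transcription factors, Maf differed and Spi1 did not pass the test. Maf encodes c-Maf, a factor of tissue and anti-inflammatory macrophages that some T cells also use. It stood at 293, 344, 339 and 279 CPM in A. faecalis wounds, 219, 179.9, 183 and 188 CPM in S. aureus wounds and 331, 308, 296 and 339 CPM in vehicle wounds. The 4 S. aureus libraries lay far below all 8 others, and the A. faecalis and vehicle libraries spanned the same range. Maf fell in S. aureus wounds against vehicle (log2 fold change -0.73 ± 0.10, adjusted p = 0.00648, edgeR) and was higher in A. faecalis than in S. aureus wounds (0.71 ± 0.10, adjusted p = 0.00169). It was the only member whose call against vehicle was kept under all 20 alternative settings, which include leaving out each library in turn.

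Spi1 encodes PU.1, which macrophages share with neutrophils and B cells. Its level was 143, 263, 193 and 223 CPM in A. faecalis wounds, 147, 152, 181 and 153 CPM in S. aureus wounds and 129, 201, 97.3 and 213 CPM in vehicle wounds. The 3 groups overlapped, and vehicle replicate 3 was the lowest of all libraries. The log2 fold change for A. faecalis over S. aureus was 0.38 ± 0.24 (adjusted p = 0.332, edgeR).

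**Figure D3:**
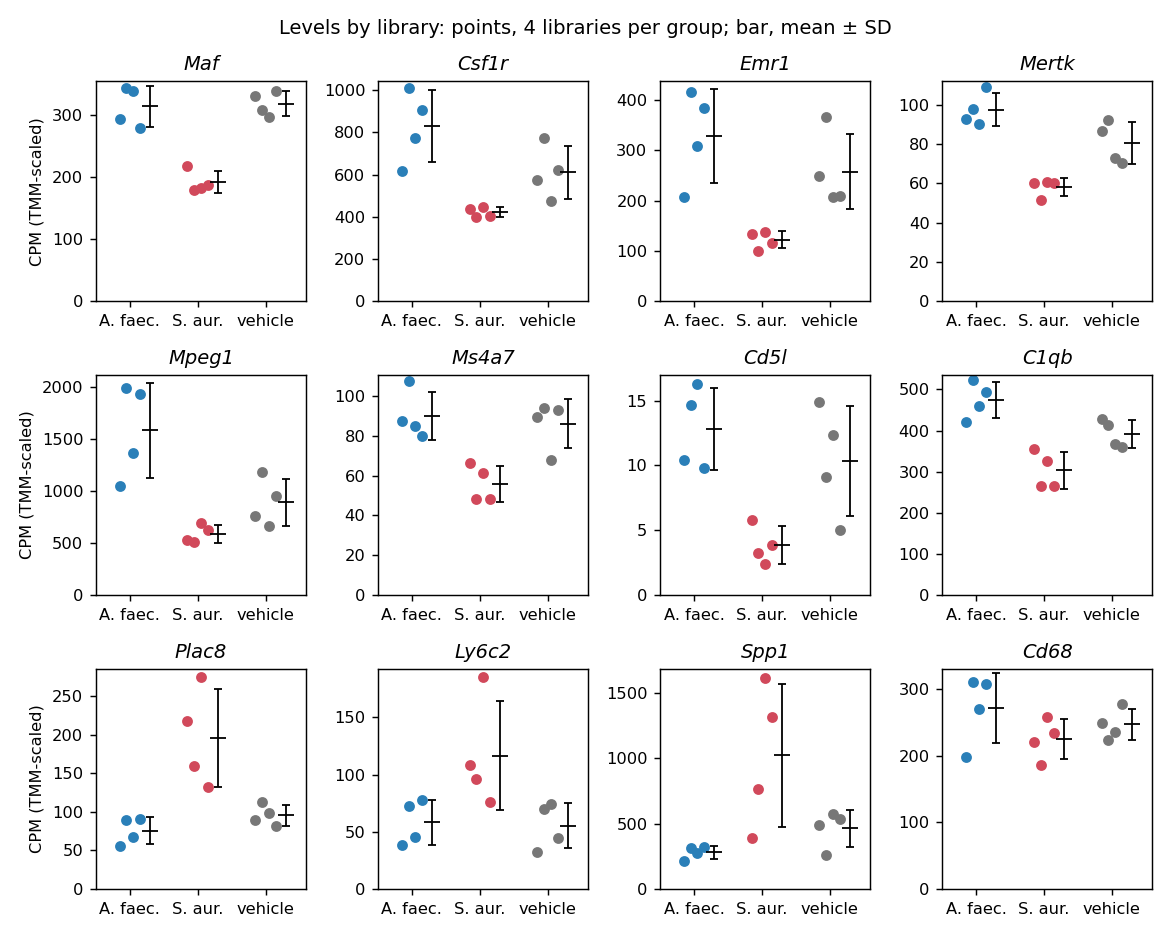
Levels (vertical axes, CPM after TMM scaling, each from 0) of 12 members in the 3 groups (horizontal axes), with 1 point per library and a bar for the mean ± SD of 4 libraries. For Maf, Csf1r, Emr1 and Mertk the S. aureus points lie below all others, for Plac8 they lie above, and for Cd68 the groups overlap.

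Among surface and identity genes, the change was uneven. Emr1 is the older symbol of the gene for F4/80, an adhesion receptor long used to stain mouse macrophages. It was at 207, 416, 309 and 384 CPM in A. faecalis wounds, 134, 101, 138 and 117 CPM in S. aureus wounds and 249, 367, 208 and 209 CPM in vehicle wounds. Every S. aureus library was below every other library. Emr1 fell in S. aureus wounds against vehicle (log2 fold change -1.07 ± 0.23, adjusted p = 0.0244, edgeR) and was higher in A. faecalis than in S. aureus wounds (1.43 ± 0.24, adjusted p = 0.00359). The call against vehicle was lost without S. aureus replicate 2, 3 or 4 (adjusted p up to 0.067).

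Cd68 encodes a lysosomal membrane glycoprotein used as a pan-macrophage marker. It stood at 198, 311, 269.8 and 307 CPM in A. faecalis wounds, 221, 186, 258 and 234 CPM in S. aureus wounds and 249.5, 223, 236 and 278 CPM in vehicle wounds. The groups overlapped in all 3 comparisons, and the log2 fold changes were 0.14 ± 0.15, -0.13 ± 0.15 and 0.27 ± 0.15 for A. faecalis over vehicle, S. aureus over vehicle and A. faecalis over S. aureus (adjusted p of 0.822, 0.598 and 0.254, edgeR). Emr1 passed the test in 2 of these comparisons and Cd68 in none; whether their changes differ from each other was not tested.

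Aif1 encodes IBA1, an actin-bundling protein of macrophages. Its level was 34.4, 55.3, 37.4 and 39.2 CPM in A. faecalis wounds, 27.5, 16.9, 24.4 and 15.7 CPM in S. aureus wounds and 30.02, 40.1, 20.5 and 24.8 CPM in vehicle wounds. All A. faecalis libraries exceeded all S. aureus libraries, with vehicle between and overlapping both. The difference between the bacterial groups was called (log2 fold change 0.98 ± 0.24, adjusted p = 0.0216, edgeR) and did not hold when A. faecalis replicate 2 or S. aureus replicate 2 or 4 was left out (adjusted p up to 0.064).

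Ms4a7 encodes a tetraspanning membrane protein of mature macrophages. It was at 87.5, 108, 84.8 and 79.7 CPM in A. faecalis wounds, 66.1, 48.1, 61.1 and 48.5 CPM in S. aureus wounds and 89.3, 93.8, 68.01 and 93.1 CPM in vehicle wounds. All 4 S. aureus libraries were the lowest. Ms4a7 fell in S. aureus wounds against vehicle (log2 fold change -0.62 ± 0.14, adjusted p = 0.0269, edgeR) and was higher in A. faecalis than in S. aureus wounds (0.68 ± 0.14, adjusted p = 0.00948). The call against vehicle was lost without any one of S. aureus replicates 2 to 4 or vehicle replicates 1 and 2.

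The other surface genes were not called in any comparison. Itgam, the CD11b integrin chain, averaged 1083 ± 316 CPM in A. faecalis, 1174 ± 319.9 CPM in S. aureus and 855 ± 467 CPM in vehicle wounds. Fcgr3, a low-affinity Fc receptor, averaged 346 ± 78.00, 499.9 ± 94.1 and 314 ± 111 CPM in the same order. Fcgr1, the high-affinity receptor for IgG and more restricted to monocytes and macrophages, averaged 74.3 ± 13.8, 68.2 ± 18.5 and 79.4 ± 7.63 CPM. Neutrophils also carry at least Itgam, Fcgr3, Csf2rb, Spi1, Lyz2 and Cybb of the members. Of these 6 members, Itgam, Fcgr3 and Csf2rb had their highest means in S. aureus wounds, as the summed neutrophil markers did. Lyz2 and Cybb had their lowest means there, and Spi1 was near equal in S. aureus and vehicle wounds (means 158 and 160 CPM). None of the 6 was called against vehicle by edgeR.

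Of 2 markers of newly recruited monocytes, Plac8 was called and Ly6c2 was not. Plac8 encodes a small cysteine-rich protein abundant in inflammatory monocytes. It was at 55.2, 89.9, 67.4 and 90.2 CPM in A. faecalis wounds, 218, 159.6, 275 and 132 CPM in S. aureus wounds and 89.8, 113, 99.1 and 81.1 CPM in vehicle wounds. All S. aureus libraries lay above all other libraries. The neutrophil marker score was also highest in those libraries, and the part of neutrophil RNA in the levels of Plac8 and Ly6c2 was not tested. Plac8 rose in S. aureus wounds against vehicle (log2 fold change 1.03 ± 0.23, adjusted p = 0.0248, edgeR), a call lost without S. aureus replicate 3 or vehicle replicate 1 and in the fit of only the 2 groups compared, and was lower in A. faecalis than in S. aureus wounds (-1.37 ± 0.23, adjusted p = 0.00384).

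Ly6c2 encodes the Ly6C surface antigen of classical monocytes and shares sequence with Ly6c1 of endothelium. It stood at 38.1, 72.3, 45.2 and 77.6 CPM in A. faecalis wounds, 108, 96.2, 185 and 75.9 CPM in S. aureus wounds and 32.6, 69.8, 73.9 and 44.8 CPM in vehicle wounds. S. aureus libraries were above all vehicle libraries, while the lowest of them was below the highest A. faecalis library. Neither difference passed the edgeR test (log2 fold change 1.07 ± 0.34 against vehicle, adjusted p = 0.0725, and -0.998 ± 0.34 for A. faecalis over S. aureus, adjusted p = 0.074), and DESeq2 called both.

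Plac8 and Emr1 each set the S. aureus libraries apart from the rest, in opposite directions, so their ratio must do so too. As a log2 ratio of CPM it was -2.10 ± 0.14 in A. faecalis wounds (range -2.21 to -1.91), 0.63 ± 0.34 in S. aureus wounds (0.18 to 0.99) and -1.40 ± 0.26 in vehicle wounds (-1.70 to -1.07; SD, n = 4 each). The ranges of all 3 groups were apart, with A. faecalis lowest and S. aureus highest. Ly6c2 against Emr1 gave -2.51 ± 0.20 in A. faecalis, -0.14 ± 0.44 in S. aureus and -2.26 ± 0.59 in vehicle wounds, and here A. faecalis and vehicle overlapped. Emr1 against Csf1r, which are both genes of mature macrophages, was -1.36 ± 0.15, -1.79 ± 0.13 and -1.26 ± 0.22 in A. faecalis, S. aureus and vehicle wounds. These ratios were formed with the results of their genes known and carry no test. They compare libraries and say nothing about which gene of a pair is the more abundant, since CPM are not scaled by length.

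Of the 7 genes for lysozyme and lysosomal proteins, 2 fell in S. aureus wounds against vehicle and 2 were higher in A. faecalis than in S. aureus wounds. Mpeg1 encodes perforin-2, a pore-forming protein that damages swallowed bacteria. Its level was 1047, 1999, 1366 and 1933 CPM in A. faecalis wounds, 532, 508, 693 and 629.6 CPM in S. aureus wounds and 759.5, 1182, 669.99 and 957 CPM in vehicle wounds. The A. faecalis libraries were all far above the S. aureus libraries, and vehicle overlapped both. Mpeg1 was higher in A. faecalis than in S. aureus wounds (log2 fold change 1.43 ± 0.23, adjusted p = 0.00321, edgeR), and against vehicle its log2 fold change of 0.83 ± 0.23 in A. faecalis wounds had the lowest adjusted p of the 35 in that comparison, 0.452.

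Ctsb encodes cathepsin B, a lysosomal cysteine protease made by many cell types. It stood at 2593, 3092, 2893 and 2884 CPM in A. faecalis wounds, 2142, 1733, 2029.7 and 2073 CPM in S. aureus wounds and 2758, 2591, 2798 and 2326 CPM in vehicle wounds. No S. aureus library reached the lowest of the others. Ctsb was higher in A. faecalis than in S. aureus wounds (log2 fold change 0.52 ± 0.11, adjusted p = 0.00894, edgeR). Against vehicle it fell in S. aureus wounds by -0.39 ± 0.11 with an adjusted p of 0.047, close to the threshold, and 11 of the 12 fits that each left out a library did not call it.

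Lgmn encodes legumain, an asparagine-specific lysosomal protease. Its level was 838, 855, 875 and 762 CPM in A. faecalis wounds, 701, 520.1, 694 and 664 CPM in S. aureus wounds and 959, 830.4, 773 and 996 CPM in vehicle wounds. Again every S. aureus library was below the other groups. Lgmn fell against vehicle (log2 fold change -0.46 ± 0.12, adjusted p = 0.0407, edgeR), also lost in 11 of 12 such fits, and the difference between A. faecalis and S. aureus wounds was not called (0.37 ± 0.12, adjusted p = 0.0625).

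The other lysosomal genes were not called. Lyz2, the lysozyme of macrophages and neutrophils, averaged 2862 ± 718 CPM in A. faecalis, 1689 ± 192 CPM in S. aureus and 1986 ± 935 CPM in vehicle wounds. Its difference between A. faecalis and S. aureus wounds had an adjusted p of 0.0959 by edgeR and was called without vehicle replicate 2. Cathepsin S, which trims the invariant chain for antigen presentation, averaged 745 ± 112, 578 ± 118 and 718 ± 28.1 CPM in A. faecalis, S. aureus and vehicle wounds. Ctsl, cathepsin L, averaged 700.3 ± 49.1, 688 ± 62.9 and 829.7 ± 109 CPM. Ctsk, the collagen-degrading cathepsin K of osteoclasts and fibroblasts, averaged 89.3 ± 12.3, 109 ± 11.02 and 128 ± 36.2 CPM and was 1 of the 2 members lower in A. faecalis than in vehicle wounds at an unadjusted p under 0.05 (log2 fold change -0.52 ± 0.18, adjusted p = 0.547).

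The 3 chains of C1q, the recognition molecule of the classical complement pathway that macrophages make and that tags dead cells for uptake, were all called between the bacterial groups. C1qa was at 302, 355, 299 and 319 CPM in A. faecalis wounds, 264, 208, 266 and 223 CPM in S. aureus wounds and 294, 264, 226 and 229 CPM in vehicle wounds. C1qb was at 422, 522, 459 and 495 CPM in A. faecalis wounds, 355, 265, 327 and 266 CPM in S. aureus wounds and 428, 414, 368 and 359 CPM in vehicle wounds. C1qc was at 341, 412, 364 and 403 CPM in A. faecalis wounds, 325, 254, 300.2 and 264 CPM in S. aureus wounds and 335, 318, 306 and 254 CPM in vehicle wounds. For C1qa and C1qc the A. faecalis libraries were above all 8 others, and for C1qb they were above all S. aureus libraries and overlapped vehicle.

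All 3 chains were higher in A. faecalis than in S. aureus wounds by edgeR. The log2 fold change was 0.41 ± 0.12 for C1qa (adjusted p = 0.0382), 0.65 ± 0.12 for C1qb (adjusted p = 0.00535) and 0.41 ± 0.11 for C1qc (adjusted p = 0.0345). Of the chains, C1qb alone kept the call under all 20 alternative settings. C1qa lost it without any one A. faecalis library, S. aureus replicate 2 or 4, or vehicle replicate 2, and C1qc without any one of replicates 2 to 4 of either bacterial group (adjusted p up to 0.102). Against vehicle the A. faecalis log2 fold changes were 0.33 ± 0.12, 0.27 ± 0.12 and 0.33 ± 0.11 for C1qa, C1qb and C1qc, with adjusted p of 0.551, 0.629 and 0.551.

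The genes for clearance of dead cells and lipid were split. Mertk encodes the receptor kinase through which macrophages take up apoptotic cells. It stood at 92.9, 97.7, 90.2 and 109 CPM in A. faecalis wounds, 60.2, 51.3, 60.6 and 59.95 CPM in S. aureus wounds and 86.7, 91.99, 72.9 and 70.4 CPM in vehicle wounds. The S. aureus libraries were below all others, and vehicle replicate 2 reached into the A. faecalis range. Mertk fell in S. aureus wounds against vehicle (log2 fold change -0.47 ± 0.10, adjusted p = 0.0241, edgeR) and was higher in A. faecalis than in S. aureus wounds (0.75 ± 0.10, adjusted p = 0.00162, the lowest of the 35 in that comparison). The call against vehicle was lost without any one of S. aureus replicates 2 to 4 or vehicle replicates 1 and 2 (adjusted p up to 0.065).

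Axl, the related kinase, was called in no comparison and averaged 185 ± 19.8 CPM in A. faecalis, 205 ± 14.4 CPM in S. aureus and 215 ± 40.4 CPM in vehicle wounds. Cd5l encodes AIM, a scavenger protein secreted by tissue macrophages that supports their survival. It was at 10.4, 14.7, 16.3 and 9.82 CPM in A. faecalis wounds, 5.83, 3.28, 2.36 and 3.89 CPM in S. aureus wounds and 14.9, 9.14, 12.3 and 5.05 CPM in vehicle wounds. All A. faecalis libraries were above all S. aureus libraries, and vehicle replicate 4 fell inside the S. aureus range. Cd5l fell in S. aureus wounds against vehicle (log2 fold change -1.43 ± 0.34, adjusted p = 0.0325, edgeR; lost without S. aureus replicate 2, 3 or 4 or vehicle replicate 1 or 3) and was higher in A. faecalis than in S. aureus wounds (1.74 ± 0.34, adjusted p = 0.00817).

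Spp1 encodes osteopontin, a secreted matrix protein of inflammatory macrophages that fibroblasts and epithelia also make. Its level was 210.3, 313, 273 and 324 CPM in A. faecalis wounds, 394, 763, 1618 and 1317 CPM in S. aureus wounds and 492, 259, 574 and 532 CPM in vehicle wounds. The S. aureus libraries ranged widely and all exceeded the A. faecalis libraries, while replicate 1 lay within the vehicle range. Spp1 was lower in A. faecalis than in S. aureus wounds (log2 fold change -1.87 ± 0.39, adjusted p = 0.0099, edgeR), and the S. aureus difference from vehicle of 1.14 ± 0.38 was not called (adjusted p = 0.0838, and 0.0229 without S. aureus replicate 1).

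The remaining clearance genes were not called. Cd36, a fatty acid and lipoprotein receptor of macrophages, adipocytes and capillaries, averaged 916 ± 227 CPM in A. faecalis wounds and 700.5 ± 128 CPM in S. aureus wounds, and was at 1091, 857, 2394 and 763 CPM in the 4 vehicle wounds. The high library was vehicle replicate 3, which also had the highest adipocyte score, and without it the log2 fold change of A. faecalis over vehicle was 0.036 in place of -0.48 ± 0.33. Gpnmb, a glycoprotein of lipid-laden macrophages and pigment cells, averaged 67.99 ± 14.3 CPM in A. faecalis wounds and 60.5 ± 12.5 CPM in S. aureus wounds, and was at 107, 70.1, 265 and 39.5 CPM in vehicle wounds. Its log2 fold change of S. aureus over vehicle was -0.24 without replicate 3 in place of -0.99 ± 0.45. The part of fat tissue in these vehicle values was not tested. Trem2, a lipid-sensing receptor, averaged 39.1 ± 5.93 CPM in A. faecalis, 37.7 ± 4.42 CPM in S. aureus and 53.97 ± 13.3 CPM in vehicle wounds. Its log2 fold change of A. faecalis over vehicle was -0.47 ± 0.17 (adjusted p = 0.572, edgeR). Apoe, the lipid carrier, averaged 791 ± 63.4, 737 ± 111 and 783 ± 183 CPM in A. faecalis, S. aureus and vehicle wounds.

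Cybb was the only effector enzyme called. It encodes the catalytic subunit of the NADPH oxidase that makes superoxide in macrophages and neutrophils. It stood at 235, 638, 413 and 592 CPM in A. faecalis wounds, 217, 212, 244 and 191 CPM in S. aureus wounds and 222, 474, 219 and 219 CPM in vehicle wounds. The highest S. aureus library was just above the lowest A. faecalis library, and vehicle replicate 2 was far above the other vehicle libraries. Cybb was higher in A. faecalis than in S. aureus wounds (log2 fold change 1.12 ± 0.32, adjusted p = 0.0404, edgeR). The call was lost with limma-voom, with no filter on low counts, and without any one of A. faecalis replicates 2 to 4 or any one S. aureus library (adjusted p up to 0.107).

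Nos2 and Arg1 encode enzymes that compete for arginine, inducible nitric oxide synthase of inflammatory macrophages and arginase 1 of repair-associated macrophages, and keratinocytes and neutrophils can also make Nos2. Nos2 was at 156, 528, 205 and 475 CPM in A. faecalis wounds, 587, 950.3, 889 and 765 CPM in S. aureus wounds and 75.6, 336, 15.5 and 614 CPM in vehicle wounds. The S. aureus libraries were above all A. faecalis libraries, and the vehicle libraries ranged from the lowest of all to within the S. aureus range. Its log2 fold change was 1.62 ± 0.81 for S. aureus over vehicle (adjusted p = 0.225, edgeR) and -1.23 ± 0.80 for A. faecalis over S. aureus (adjusted p = 0.349). Arg1 was at 279, 482, 271 and 345 CPM in A. faecalis wounds, 534, 778, 449 and 1126 CPM in S. aureus wounds and 576, 379.9, 88.6 and 936 CPM in vehicle wounds. Its groups overlapped, with an adjusted p of 0.218 between A. faecalis and S. aureus wounds and 0.0473 without vehicle replicate 3. The log2 ratio of Nos2 to Arg1 was -0.16 ± 0.57 in A. faecalis, 0.21 ± 0.63 in S. aureus and -1.56 ± 1.37 in vehicle wounds, with overlapping ranges.

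The members varied among the mice of a group to different degrees. The coefficient of variation had a median over the 35 of 18.9% in A. faecalis wounds (5.92% for Lgmn to 55.0% for Nos2), 14.2% in S. aureus wounds (3.44% for Csf1 to 53.7% for Spp1) and 24.6% in vehicle wounds (3.92% for Ctss to 105% for Nos2). Within A. faecalis wounds, replicate 2 was the highest library in 22 members and replicate 1 the lowest in 21. Within S. aureus wounds, replicate 3 was the highest in 18 and replicate 2 the lowest in 20. Within vehicle wounds, replicate 3 was the lowest in 16 members and the highest in 8. Members of 1 library are measured in the same tissue piece, so these counts are not independent of each other.

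Genes that bring monocytes in or work with the members were counted from 2 further lists. Of 22 genes for recruitment and growth factor signals, among them the chemokine receptor gene Ccr2 and its ligand gene Ccl2, none was called between A. faecalis and vehicle wounds (median log2 fold change -0.01). In S. aureus wounds 1 rose against vehicle, Csf2 (median -0.11), where 3.87% of all genes tested were called higher. Csf2 was at very low levels, with means of 0.74 CPM in S. aureus and 0.30 CPM in vehicle wounds (adjusted p = 0.048, edgeR). Ccr2 averaged 201 ± 26.6 CPM in A. faecalis, 191 ± 25.8 CPM in S. aureus and 214 ± 39.4 CPM in vehicle wounds, and it was called in no comparison. Of 28 tested genes for partners in phagocytosis, the oxidase and the lysosome, none was called against vehicle for A. faecalis (median 0.18) or S. aureus (median -0.09). Between A. faecalis and S. aureus wounds 4 were higher, Marco, Ctsz, Lamp1 and Tfeb, and 1 was lower, Tyro3 (median 0.28). Of all genes tested, 5.06% were called higher and 7.62% lower. Marco, a scavenger receptor that binds bacteria, was at 32.5, 122, 114 and 168 CPM in A. faecalis wounds, 10.03, 10.2, 8.76 and 16.8 CPM in S. aureus wounds and 15.1, 76.4, 6.70 and 17.01 CPM in vehicle wounds. Vehicle replicate 2 lay within the A. faecalis range and the other vehicle libraries lay near the S. aureus range. Marco was higher in A. faecalis than in S. aureus wounds (log2 fold change 3.25 ± 0.71, adjusted p = 0.0133, edgeR).

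Levels of neutrophil markers also differed between the groups. All 13 were tested and none was at 0 in any library. Their summed level was 1854 to 4437 CPM in A. faecalis wounds, 9613 to 15303 CPM in S. aureus wounds and 732 to 9157 CPM in vehicle wounds, and their score -1.26 to 0.01, 0.99 to 1.76 and -2.66 to 0.71 in the same order. S. aureus lay above the ranges of both other groups, which overlapped. Between A. faecalis and S. aureus wounds 6 were lower, Retnlg, Ly6g, Cxcr2, S100a8, S100a9 and Ngp, beside 7.62% of all genes tested. In S. aureus wounds 1 rose against vehicle, Camp, beside 3.87% of all genes tested. Camp was at very low levels, with means of 2.25 CPM in S. aureus and 0.41 CPM in vehicle wounds. The median log2 fold change of the 13 markers was -0.09, 1.51 and -1.73 for A. faecalis over vehicle, S. aureus over vehicle and A. faecalis over S. aureus. Retnlg, which encodes a resistin-like protein of neutrophils, was at 31.5, 43.6, 16.5 and 53.6 CPM in A. faecalis wounds, 725, 1190.1, 1601 and 1251 CPM in S. aureus wounds and 24.3, 263, 13.98 and 536 CPM in vehicle wounds. The part of neutrophil RNA in the differences of the 35 members was not tested.

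**Figure D4:**
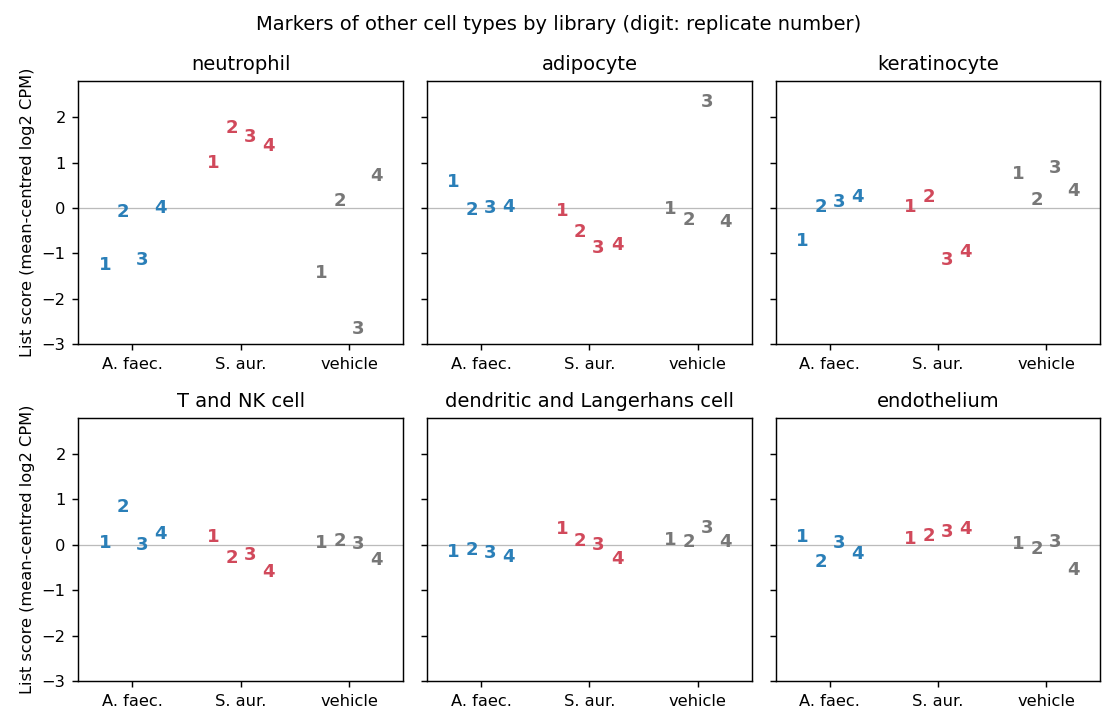
Scores of 6 marker lists of other cell types (vertical axes, mean-centred log2 CPM) in the 3 groups (horizontal axes); each digit is 1 library and gives its replicate number. The neutrophil score is 0.99 to 1.76 in S. aureus wounds and lower in every other library, and vehicle replicate 3 stands alone in the adipocyte score at 2.34.

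Some members share stretches of sequence with transcripts of other genes. All 31-base words in their transcripts in the GENCODE M21 annotation were compared, with both strands read. By this count 20 members shared none with another gene and 6 shared at most 5.38%. Itgam shared 68.3%, and 67.2% with the predicted gene Gm49368. Lyz2 shared 32.8% (with Lyz1), Ctsl 28.2% (mostly with Gm47123), Ly6c2 23.8% (mostly with Ly6c1) and Csf2rb 19.7% (mostly with Csf2rb2). Csf1r shared 14.9% (mostly with Hmgxb3), Spp1 14.3% (with Gm42793), Fcgr3 13.4% (with Fcgr2b) and Ctsb 13% (mostly with Fdft1). Levels of these 9 can depend on how shared reads were divided. Words shared on the same strand and on opposite strands were not counted apart. Maf, Emr1, Mertk, Plac8, Mpeg1, Cd5l and the C1q chains were among those at or below 5.38%.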

How the data were processed

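RNA sequencing of wounded skin gave 12 libraries, 1 per mouse. The authors deposited a table of estimated counts per gene, unnormalized, and per the submitters' processing notes used kallisto 0.48.0, FastQC 0.12.1, R 4.1.3, DESeq2 1.34.0 and mouse build GRCm39, with no roles given. Per the labels' protocols, libraries were stranded and made from total RNA after removal of ribosomal RNA. The sources used here do not say whether strand was used or how transcripts were summed to genes. The 1 entry without a name (0.00909% to 0.0151% of a library) was left out.

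Estimated counts were rounded. Differences were tested over all genes in 1 fit of the 12 libraries with edgeR 4.0.16 in R 4.3.3 (TMM scaling, filterByExpr with minimum count 10 and minimum total 15, robust quasi-likelihood test, two-sided, Benjamini-Hochberg adjustment, threshold 0.05). The SE is the log2 fold change divided by the square root of the F statistic. Scores used a prior count of 2. The steps were tested on simulated data. Pairs of libraries within a group differed by a chi-square statistic of 28.8 to 481 per degree of freedom, so none looked like 1 library deposited under 2 names. Of 167 symbols in the members and further lists, 165 were found.

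Members, lists and tests were chosen with earlier results of these data known. Values in every library are given for members called in any comparison and for Csf1r, Emr1, Cd68 and Spi1; those of Ly6c2, Nos2, Arg1, Cd36, Gpnmb, Marco and Retnlg were added after their values were seen. Alternatives were DESeq2 size factors, upper-quartile scaling, DESeq2 1.42.0, limma-voom (limma 3.58.1), no filter, a mean of at least 1 CPM, only the 2 groups compared, a block for the replicate number, and leaving out each library. Start regions are from RefSeq on GRCm38.p6 and shared 31-base words from GENCODE M21, both of another build than the authors', so no coordinates of the counted genes are given. The dose of bacteria was left out because the labels give it unclearly. Some results of the further lists are not reported here.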

Additional observations from a re-analysis of the deposited data

Results flagged for a closer look

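In 105 groups of 4 libraries (35 members in 3 groups), 4 held a library set apart from its 3 companions by Dixon's test at the 95% level, where chance alone gives about 1 in 20 groups. Cybb was at 474 CPM in vehicle replicate 2, against 219 to 222 CPM in the other vehicle wounds. Mertk was at 51.3 CPM in S. aureus replicate 2, against 59.95 to 60.61 CPM in the other S. aureus wounds. Ctsl was at 594 CPM in the same library, against 708 to 726 CPM. Csf1 was at 167 CPM in S. aureus replicate 3, against 155 to 157 CPM in the other S. aureus wounds. The causes were not tested.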

How the results depend on the processing

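Under 20 alternative settings, 12 of the 24 called differences of members kept their call in all of them, 11 between A. faecalis and S. aureus wounds and 1, Maf, between S. aureus and vehicle wounds. None of the 24 changed direction. Of all 105 differences, 17 changed sign in at least one setting, none of them called; the largest of these was Cd36 for A. faecalis over vehicle, at -0.66 to 0.036 when libraries were left out, with the sign changed only without vehicle replicate 3. DESeq2 called 122 genes between A. faecalis and vehicle, and 2854 genes and 14 members between S. aureus and vehicle. A fit of only the 2 groups compared called 350 genes and 2 members between S. aureus and vehicle. Leaving out each library in turn gave 2 to 10 genes between A. faecalis and vehicle, 260 to 1750 genes and 1 to 10 members between S. aureus and vehicle, and 1313 to 3457 genes and 11 to 17 members between A. faecalis and S. aureus. Other scalings moved the median of all genes by at most 0.0324 on the log2 scale.

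With the replicate number as a block the fit called 0 members and 2 genes between A. faecalis and vehicle, 7 and 1038 between S. aureus and vehicle, and 13 and 2120 between A. faecalis and S. aureus. Against vehicle it lost Csf1, Ctsb and Lgmn and gained Csf2rb (adjusted p = 0.0454) in S. aureus wounds, and between the bacterial groups it lost C1qa and C1qc. For a check of pairing, the group mean of each gene was subtracted from its log2 CPM. Correlations of same-numbered libraries were then 0.07 to 0.18, -0.21 to 0.08 and -0.14 to 0.02 in the 3 comparisons. These values show no clear pairing by number and cannot show that the mice were unpaired. With 4 mice per group, differences within the spread between mice were not detectable, which is not the same as absent.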

Other observations

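Markers of other cell types were counted beside the members. Of all genes tested, 3.87% were called higher and 2.97% lower in S. aureus wounds against vehicle. For A. faecalis over S. aureus wounds these shares were 5.06% and 7.62%. Between A. faecalis and S. aureus wounds, Cd4 and Ncr1 of 8 T and NK cell markers were higher, Ccr7 of 9 dendritic and Langerhans cell markers was lower, and Calcr of 5 tested osteoclast and giant cell markers was lower. Calcr also rose in S. aureus wounds against vehicle, at very low means of 0.175, 0.591 and 0.165 CPM in A. faecalis, S. aureus and vehicle wounds. Of 6 endothelial markers, Emcn and Pecam1 rose in S. aureus wounds against vehicle, and Emcn was lower in A. faecalis than in S. aureus wounds. Of 7 fibroblast markers, Pdgfra rose and Dpt fell in S. aureus wounds against vehicle, and Pdgfra was lower in A. faecalis than in S. aureus wounds. Of 8 keratinocyte markers, Krt15 fell in S. aureus wounds against vehicle and was higher in A. faecalis than in S. aureus wounds. No marker of adipocytes (10 tested) or skeletal muscle (6 tested) was called in any comparison. All calls are by edgeR at an adjusted p under 0.05 over all genes tested.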
